A study of Mus musculus with 3 samples.

Results

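The hypoxia and glycolysis module comprised 35 genes, chosen by name: 14 glycolytic enzymes, 2 enzymes that set the fate of lactate and pyruvate, 3 sugar or lactate transporters, 3 genes of oxygen sensing, 3 genes of secreted proteins, 3 mitochondrial and mitophagy genes, 3 genes of collagen hydroxylation and oxidative folding, and 4 further hypoxia targets. All 35 were present in the 3 deposited expression matrices, out of 16267 genes that the matrices shared. The study measured RNA, surface proteins and hashtags in single cells from 1 pool of 8 hashed samples, and the 3 matrices held the brain with metastases (5933 cells), the blood of mice with metastases (2924 cells) and the brain of mice without metastases (naive brain, 2653 cells). All mice were females of 2 to 3 months of age. The depleted arm carried Cx3cr1CreERT and ROSA-iDTR, and the control arm carried Cx3cr1CreERT alone. Both arms received tamoxifen and then diphtheria toxin, so the control arm shares the Cre allele and both agents. Cx3cr1 drives the Cre and is also used by monocytes and other mononuclear phagocytes, and per the labels some microglia remained in the depleted samples. Metastases were started by carotid injection of E0771 cells, a mouse mammary carcinoma line, about 2 weeks before collection, and brain cells were enriched on Percoll.

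When oxygen is scarce, the prolyl hydroxylases of the Egln family no longer mark the HIF-1 alpha protein for destruction, and the stabilised protein joins its partner Arnt on DNA at short elements with the core ACGTG or GCGTG. Known targets include the glucose transporter Slc2a1, nearly every enzyme from hexokinase to pyruvate kinase, Ldha (which turns pyruvate into lactate), the lactate exporter Slc16a3, and hypoxia genes such as Adm, Bnip3, Egln3 and Ndrg1. Control of Hif1a itself lies largely at the level of protein stability. Many tumour cells and activated immune cells also run high glycolysis with oxygen present, and brain endothelial cells use Slc2a1 to carry glucose across the blood-brain barrier.

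Promoter sequences are shown for 6 members on which the results turn, 4 that hold the ACGTG core and 2 that do not. They come from RefSeq (GRCm38.p6, the assembly known as mm10) and run from 250 bases before to 50 bases after the annotated start, printed 5′ to 3′ on the gene's strand. Capitals mark ACGTG on either strand (CACGT where it lies on the opposite strand), or CACGTG where both overlap. The lactate dehydrogenase gene Ldha (chr7:46845554-46845853, + strand, the first of its listed promoters) has 5 matches counted over both strands. The glycolytic kinase Pgk1 (chrX:106186850-106187149, + strand) and the mitophagy receptor Bnip3 (chr7:138909457-138909756, - strand) have 2 each, and the oxygen sensor Egln3 (chr12:54203825-54204124, - strand) has 1. The peptide gene Adm (chr7:110627407-110627706, + strand) and the triose-phosphate isomerase Tpi1 (chr6:124814109-124814408, - strand), both far higher in tumour-like than in immune cells, have no ACGTG in this window, where Adm has 2 matches of the other core, GCGTG, and Tpi1 none.
Ldha: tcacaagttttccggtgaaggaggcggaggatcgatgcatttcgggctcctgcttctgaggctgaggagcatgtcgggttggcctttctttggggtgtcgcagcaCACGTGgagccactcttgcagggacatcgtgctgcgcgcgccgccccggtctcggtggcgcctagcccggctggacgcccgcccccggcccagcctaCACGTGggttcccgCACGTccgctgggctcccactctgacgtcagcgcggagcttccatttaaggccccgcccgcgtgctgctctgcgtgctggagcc
Pgk1: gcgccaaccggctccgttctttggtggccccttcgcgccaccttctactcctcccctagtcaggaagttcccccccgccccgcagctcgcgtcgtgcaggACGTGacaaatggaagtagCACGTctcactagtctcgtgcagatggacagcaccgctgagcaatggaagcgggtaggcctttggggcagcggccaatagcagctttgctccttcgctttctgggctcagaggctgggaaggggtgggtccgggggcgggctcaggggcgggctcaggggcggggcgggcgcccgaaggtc
Bnip3: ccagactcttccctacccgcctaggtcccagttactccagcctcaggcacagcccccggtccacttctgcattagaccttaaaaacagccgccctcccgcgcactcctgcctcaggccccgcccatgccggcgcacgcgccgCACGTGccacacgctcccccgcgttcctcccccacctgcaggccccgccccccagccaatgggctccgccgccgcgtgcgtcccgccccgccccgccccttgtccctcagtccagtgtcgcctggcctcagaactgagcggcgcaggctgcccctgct
Egln3: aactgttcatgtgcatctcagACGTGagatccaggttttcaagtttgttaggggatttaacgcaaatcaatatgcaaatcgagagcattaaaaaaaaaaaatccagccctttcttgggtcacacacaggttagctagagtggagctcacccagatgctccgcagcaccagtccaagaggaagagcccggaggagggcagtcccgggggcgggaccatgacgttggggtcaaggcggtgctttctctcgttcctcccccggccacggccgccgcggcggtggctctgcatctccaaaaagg
Adm: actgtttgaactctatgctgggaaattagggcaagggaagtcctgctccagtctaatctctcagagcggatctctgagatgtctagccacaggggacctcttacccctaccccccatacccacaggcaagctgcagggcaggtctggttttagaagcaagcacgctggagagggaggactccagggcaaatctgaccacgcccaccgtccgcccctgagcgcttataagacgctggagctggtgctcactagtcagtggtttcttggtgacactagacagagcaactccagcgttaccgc
Tpi1: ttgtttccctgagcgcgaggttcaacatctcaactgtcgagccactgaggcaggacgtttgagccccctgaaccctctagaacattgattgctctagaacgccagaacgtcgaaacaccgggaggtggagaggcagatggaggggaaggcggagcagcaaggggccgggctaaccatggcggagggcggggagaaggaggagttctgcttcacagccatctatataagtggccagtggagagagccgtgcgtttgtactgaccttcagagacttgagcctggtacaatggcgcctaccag

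The promoter table held 43 promoters of 32 members, and 27 of them (62.8%) contained ACGTG on either strand. The share was 19.6% of all 32851 promoters of the same length, and 27.5% of the 4628 promoters of genes that reached 0.5 CP10k in tumour-like, myeloid or lymphoid cells. CP10k is the number of a gene's corrected UMIs per 10000 corrected UMIs of all genes in a group of cells. A UMI (unique molecular identifier) stands for 1 captured RNA molecule, but the authors corrected its counts for depth. The second core, GCGTG, occurred in 58.1% of member promoters, against 32.4% and 51.5% of the same 2 sets, and the palindrome CACGTG, which contains ACGTG on both strands, in 9.30%, against 7.15% and 10.9%. Median GC content was 65.0% in member promoters, against 52.7% and 60.7%. By role, ACGTG was found for 9 of 14 glycolytic enzymes, 3 of 3 oxygen-sensing genes, 3 of 3 genes of collagen hydroxylation and folding, 2 of 2 transporters and 2 of 2 mitochondrial genes with an entry. These matches describe the letters of this window. Bnip3l, Ndrg1 and Slc2a3 had no entry.

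The cells of the brain with metastases could not be divided by arm, since no map from their barcodes to hashtags was used here, and they are described pooled. They were clustered without the 35 members and named from marker genes, which gave 1156 tumour-like, 1855 myeloid and 1384 lymphoid cells, with 1538 cells (vascular, mural, fibroblast-like and unnamed clusters) in none of these families. The tumour-like name rests on 3 of the 12 tumour markers in the matrix, namely Krt8 (5.59 CP10k), Rhox5 (10.3 CP10k) and Wfdc2 (8.59 CP10k), while Epcam was at 0.00061 CP10k and the leukocyte gene Ptprc at 0.00794 CP10k. The summed tumour markers were 24.7 CP10k in tumour-like cells, 0.430 CP10k in myeloid cells and 0.852 CP10k in lymphoid cells. Vessel cells also carried them, with sums of 19.5 CP10k in the mural cluster led by Vtn and 18.1 CP10k in the endothelial cluster led by Spock2, so the sum sets tumour-like cells apart from immune cells but not from vessel cells. Some barcodes were listed in more than 1 matrix: 339 in naive brain and blood, 578 in the brain with metastases and blood, and 518 in both brains, which amounts to 29.1% of naive brain, 17.1% of metastatic brain and 28.5% of blood cells. Median corrected UMIs per cell were 13647 in metastatic brain, 5117.5 in blood and 9613 in naive brain. In the naive brain, the depleted-labelled sample had more of its cells in the microglia cluster, 36.7% (95% exact binomial interval 34.5 to 39.0) against 17.1% (14.5 to 19.9) in the control-labelled sample, and Cx3cr1 in that cluster stood at 10.0 against 1.72 CP10k. The arms are therefore called by their labels. Each arm is 1 hashed sample in each tissue, so no difference has a replicate check and no test was run. All intervals cover counting error only, and those of levels and ratios treat corrected UMIs as counts.

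Of the 3 families, tumour-like cells had the most RNA of the module. The 35 members together made up 162 CP10k in tumour-like cells, 65.3 CP10k in myeloid cells and 53.0 CP10k in lymphoid cells, and the 14 glycolytic enzymes alone 106, 48.6 and 36.2 CP10k. Of the 35 members, 25 reached 0.5 CP10k in tumour-like or in immune cells (myeloid and lymphoid together), and 21 of these were higher in tumour-like cells. Their median log2 ratio, with 0.1 CP10k added to each side, was 1.10, against 0.46 over all 4292 genes that reached the same level. Of those genes 59.4% were higher in tumour-like cells. In all, 14 of the 25 were more than 2 fold higher and 0 more than 2 fold lower, where 37.5% of all measured genes were past 2 fold higher and 28.1% past 2 fold lower. When the median gene was set to 0, 18 of 25 were higher, 9 of them past 2 fold. Without the shared droplets the count was 21 of 25, with 13 past 2 fold and a median of 1.05.

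**Figure D1:**
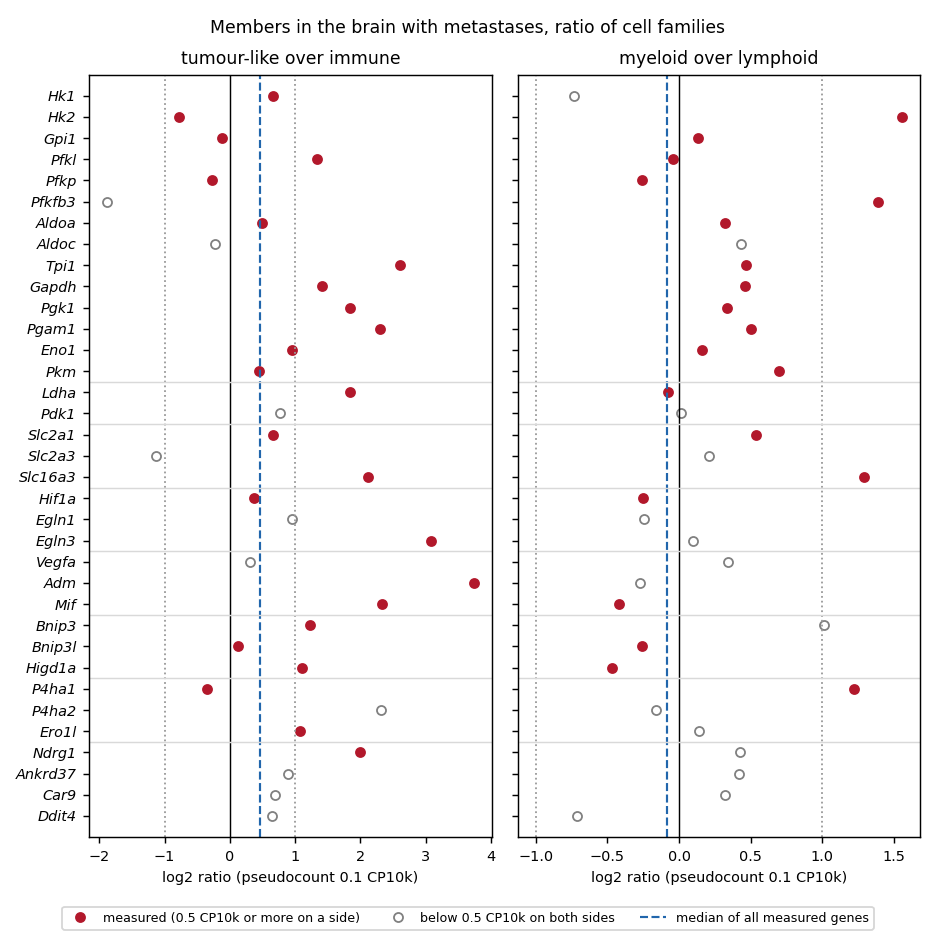
Each point is a member, placed by its log2 ratio of CP10k (0.1 CP10k added to each side) in the brain with metastases: tumour-like over immune cells on the left, myeloid over lymphoid cells on the right. Filled points reached 0.5 CP10k on a side, the dashed line is the median of all measured genes (0.46 and -0.08) and dotted lines mark 2 fold; on the left 14 filled points lie to the right of the 2 fold line, with Adm and Egln3 farthest, and on the right Hk2, Pfkfb3, Slc16a3 and P4ha1 stand apart.

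Among the glycolytic enzymes, 12 of 14 were measured, 9 were higher in tumour-like cells and 5 were past 2 fold, with a median log2 ratio of 0.80. Past 2 fold higher were also 37.5% of all measured genes, so the count by itself sets the enzymes little apart. Of the 5, 4 were from the middle and lower part of the pathway. Tpi1, the triose-phosphate isomerase, stood at 15.2 CP10k in tumour-like cells and 2.40 CP10k in immune cells (6.32 fold, 95% counting interval 6.18 to 6.47). Pgam1, the phosphoglycerate mutase, stood at 14.6 and 2.89 CP10k (5.05 fold), and Pgk1, the first kinase of the pathway that makes ATP, at 9.32 and 2.52 CP10k (3.70 fold). Gapdh, the dehydrogenase between them, stood at 36.4 CP10k in tumour-like cells and 13.7 CP10k in immune cells (2.66 fold). The fifth was an early step, Pfkl, the liver form of phosphofructokinase, at 1.72 and 0.625 CP10k (2.76 fold). The enolase Eno1, the aldolase Aldoa, the pyruvate kinase Pkm and the hexokinase Hk1 were higher by less than 2 fold, with log2 ratios of 0.95, 0.50, 0.44 and 0.66.

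Other early steps were lower in tumour-like cells, unlike Pfkl and Hk1. Hk2, the inducible hexokinase, stood at 0.299 CP10k in tumour-like cells and 0.586 CP10k in immune cells (log2 ratio -0.78). The platelet-form phosphofructokinase Pfkp stood at 0.734 and 0.910 CP10k (-0.28), and the glucose-phosphate isomerase Gpi1 at 2.91 and 3.19 CP10k (-0.13). Pfkfb3, which makes the activator of phosphofructokinase, was under 0.5 CP10k on both sides, with 0.0409 CP10k in tumour-like cells and 0.417 CP10k in immune cells. The brain-type aldolase Aldoc was low on both sides (0.0446 and 0.0686 CP10k).

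Downstream of pyruvate, Ldha stood at 17.6 CP10k in tumour-like cells and 4.85 CP10k in immune cells (3.63 fold, interval 3.57 to 3.70). Slc16a3, which exports lactate, stood at 5.94 and 1.29 CP10k (4.59 fold). Pdk1, a kinase that inhibits pyruvate dehydrogenase, was just under the level set for a measured gene, at 0.478 CP10k in tumour-like cells and 0.240 CP10k in immune cells. Of the glucose transporters, Slc2a1 stood at 0.896 and 0.531 CP10k (1.69 fold), and Slc2a3, a high-affinity form, at 0.0696 CP10k in tumour-like cells and 0.271 CP10k in immune cells. The genes of lactate production and export thus had the larger ratios, and the glucose transporter Slc2a1 the smaller one.

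The 2 largest ratios belonged to Adm and Egln3, hypoxia targets outside glycolysis. Adm, the vasodilator peptide adrenomedullin, stood at 1.69 CP10k in tumour-like cells and 0.0343 CP10k in immune cells (2770 against 149 corrected UMIs, 49.3 fold, interval 41.8 to 58.5). Egln3, a prolyl hydroxylase that is itself a HIF target, stood at 1.16 and 0.0491 CP10k (23.6 fold, interval 20.5 to 27.4). Ndrg1, a stress-induced metastasis-related gene, stood at 1.21 CP10k in tumour-like cells and 0.229 CP10k in immune cells (5.30 fold). Adm carried at least 1 corrected UMI in 58.4% of tumour-like cells, Egln3 in 71.0% and Ndrg1 in 59.9%. Hif1a was nearly level between the families, at 2.10 CP10k in tumour-like cells and 1.60 CP10k in immune cells (1.31 fold).

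The other members past 2 fold were Mif, a secreted cytokine (16.7 CP10k in tumour-like cells and 3.25 CP10k in immune cells), Bnip3 (0.712 and 0.247 CP10k), the mitochondrial protein Higd1a (2.62 and 1.17 CP10k) and Ero1l, the oxidase that supports disulfide formation (0.835 and 0.345 CP10k). Ero1l was the one member that dropped under 2 fold when shared droplets were left out (log2 ratio 0.99, against 1.07 with them). The Bnip3 relative Bnip3l stood at 1.43 and 1.30 CP10k, and the prolyl 4-hydroxylase subunit P4ha1, which modifies collagen, at 0.388 CP10k in tumour-like cells and 0.524 CP10k in immune cells.

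The remaining members stayed under 0.5 CP10k on both sides. Vegfa, the endothelial growth factor, stood at 0.391 CP10k in tumour-like cells and 0.296 CP10k in immune cells. P4ha2 stood at 0.471 and 0.0152 CP10k, the HIF prolyl hydroxylase Egln1 at 0.421 and 0.170 CP10k, and Ankrd37 at 0.299 and 0.115 CP10k. Ddit4, an inhibitor of mTORC1, stood at 0.324 CP10k in tumour-like cells and 0.170 CP10k in immune cells, and Car9, the carbonic anhydrase often used as a hypoxia marker, at 0.108 and 0.0290 CP10k.

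Split by family, the number of members past 2 fold stayed, with some exchange of members. Over myeloid cells 21 of 26 measured members were higher in tumour-like cells, 14 past 2 fold and 2 past 2 fold lower, with a median of 1.01 against 0.54 over all genes (39.4% and 29.1% of all measured genes were past 2 fold higher and lower). The 2 lower members were Hk2 (0.299 CP10k in tumour-like and 0.845 CP10k in myeloid cells) and Pfkfb3 (0.0409 and 0.596 CP10k). Over lymphoid cells 20 of 23 were higher, 14 past 2 fold and 0 past 2 fold lower, with a median of 1.31 against 0.52 (36.9% and 24.6% of all measured genes). Higher in tumour-like cells by any amount were 59.6% of all measured genes over myeloid and 61.4% over lymphoid cells. Over myeloid cells Hk1 was past 2 fold (log2 ratio 1.01) and Bnip3 was not (0.89). Over lymphoid cells Eno1 was past it (1.04) and Higd1a was not (0.85). Without shared droplets, 13 and 14 members were past 2 fold higher over myeloid and over lymphoid cells.

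Other genes of the pathways, from lists of further hypoxia and glycolysis genes, differed in both directions, where 37.5% of all measured genes were past 2 fold higher and 28.1% past 2 fold lower. Of 29 further hypoxia genes 10 were measured, 5 past 2 fold higher in tumour-like cells and 4 past 2 fold lower. Plod2, a collagen lysyl hydroxylase, stood at 0.829 CP10k in tumour-like cells and 0.0272 CP10k in immune cells, and the lipid-droplet gene Plin2 at 0.632 and 1.84 CP10k. Of 16 further glycolysis genes 4 were measured. The lactate transporter Slc16a1 stood at 1.27 CP10k in tumour-like cells and 0.0928 CP10k in immune cells and the enolase Eno3 at 1.21 and 0.296 CP10k, while the lactate dehydrogenase B subunit Ldhb stood at 0.00427 and 1.10 CP10k and the leukocyte hexokinase Hk3 at 0.00672 and 0.641 CP10k. Of 12 pyruvate oxidation genes 5 were measured, with 3 past 2 fold higher (Dld, of the pyruvate dehydrogenase complex, at 2.14 and 0.420 CP10k) and both subunits of the mitochondrial pyruvate carrier lower (Mpc1 at 0.911 and 2.10 CP10k, Mpc2 at 0.662 and 1.33 CP10k).

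Immediate-early and heat-shock genes, which are known to be induced by tissue dissociation, differed between the families as well. Their 16 genes summed to 29.4 CP10k in tumour-like cells, 196 CP10k in myeloid cells and 97.5 CP10k in lymphoid cells, and 11 of 14 measured were past 2 fold lower in tumour-like than in immune cells. Their part in the ratios of the members was not tested.

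Pooled as a family, myeloid cells had somewhat more of the module than lymphoid cells. Their classes differed, with summed members of 93.7 CP10k in monocytes and macrophages. Microglia (40.4 CP10k) and dendritic cells (44.4 CP10k) lay below the lymphoid family (53.0 CP10k). Of 20 measured members 13 were higher in myeloid cells, 4 past 2 fold and 0 past 2 fold lower, with a median log2 ratio of 0.33 against -0.08 over 3322 genes (18.1% of all measured genes past 2 fold higher, 8.49% past 2 fold lower). By any amount, 45.7% of all measured genes were higher in myeloid cells. The count past 2 fold by itself sets the members little apart from all genes. Without shared droplets 13 of 20 were higher, with a median of 0.35. The 4 were Hk2 (0.845 CP10k in myeloid and 0.221 CP10k in lymphoid cells), Pfkfb3 (0.596 and 0.165 CP10k), Slc16a3 (1.75 and 0.654 CP10k) and P4ha1 (0.719 and 0.25 CP10k). Of the glycolytic enzymes 10 of 12 were higher in myeloid cells, with Pkm at 8.21 CP10k in myeloid and 5.02 CP10k in lymphoid cells. Mif (2.84 and 3.84 CP10k), Hif1a (1.48 and 1.78 CP10k) and Ldha (4.74 and 5.01 CP10k) were lower in myeloid cells.

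Across 12 cell classes of the brain with metastases, tumour-like cells had the highest level of 17 of the 35 members, and for 14 of these the 95% counting interval lay apart from that of the next class. For Hk1, Pdk1 and Higd1a it overlapped. The same counts over all genes were not made. Since 37.5% of all measured genes were past 2 fold higher in tumour-like than in immune cells, 17 and 14 alone do not set the members apart. The next class was monocytes and macrophages for 9 of the 14, among them Tpi1, Gapdh, Pgk1, Pgam1, Eno1, Bnip3 and Mif. No class reached 0.5 CP10k for Aldoc (at most 0.237 CP10k, in dendritic cells), Egln1 (0.437 CP10k, mural cells), Ankrd37 (0.428 CP10k, endothelial cells), Car9 (0.108 CP10k, tumour-like cells) or Pdk1 (0.478 CP10k, tumour-like cells).

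**Figure D2:**
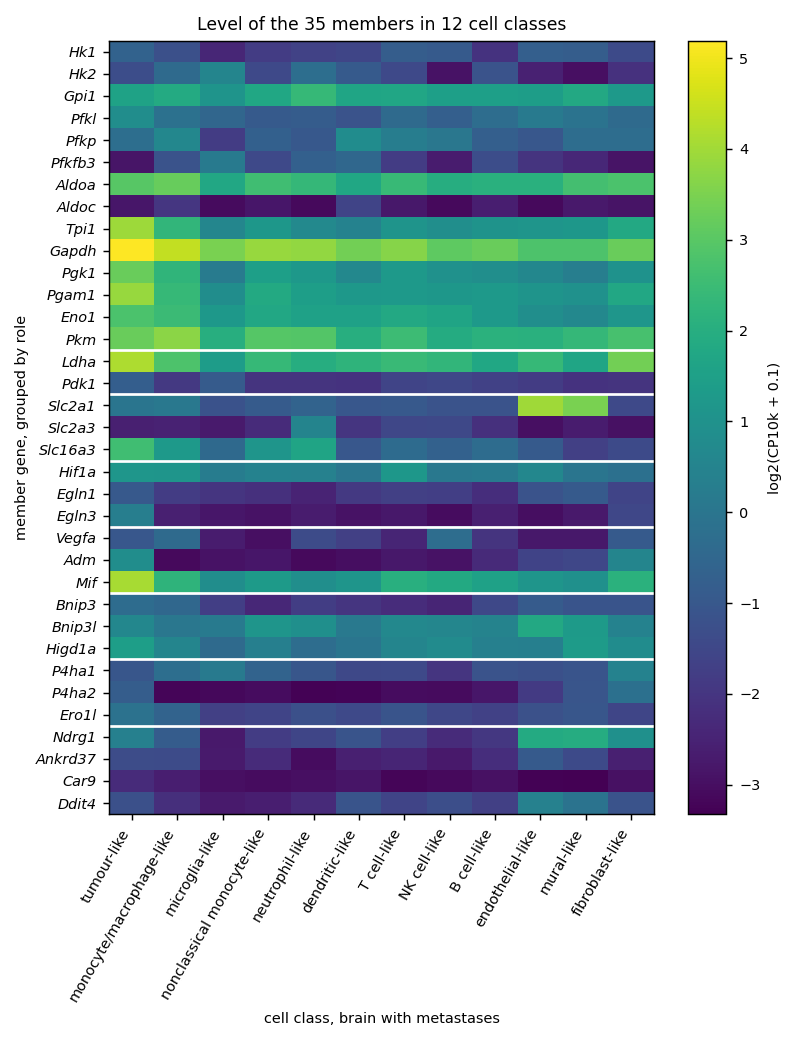
Colour gives log2(CP10k + 0.1) of each of the 35 members (rows, grouped by role between white lines) in 12 cell classes of the brain with metastases (columns, tumour-like cells first). The tumour-like column is brightest for Tpi1, Gapdh, Pgk1, Pgam1, Ldha, Slc16a3 and Mif, whereas Slc2a1 is brightest in endothelial (15.7 CP10k) and mural cells (11.0 CP10k) and Slc2a3 in neutrophils (1.34 CP10k).

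Slc2a1 was highest in the vessel classes. It stood at 15.7 CP10k in endothelial cells and 11.0 CP10k in mural cells, against 0.896 CP10k in tumour-like cells. Endothelial clusters differed among themselves: 22.1 CP10k in the cluster led by Spock2 and 16.4 CP10k in the cluster led by Ackr1, a venule marker, but 0.631 CP10k in the cluster led by Plvap, which marks fenestrated endothelium without a barrier. The mural cluster led by Vtn, a pericyte gene, had 18.7 CP10k, against 0.222 CP10k in the cluster led by the smooth-muscle actin gene Acta2. Mural cells as a class also held all 11 endothelial markers, which summed to 100.3 CP10k against 170.2 CP10k in endothelial cells, and their part in the mural level of Slc2a1 was not tested. The same vessel classes were highest for Ndrg1 (3.8 CP10k in mural and 3.56 CP10k in endothelial cells, with overlapping intervals), Bnip3l (3.41 CP10k in endothelial cells) and Ddit4 (1.23 CP10k in endothelial cells).

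Different immune classes led for different members. Monocytes and macrophages led all 12 classes for Pkm (13.1 CP10k) and Aldoa (9.18 CP10k), and their 14 enzymes summed to 70.6 CP10k. Microglia had the highest Hk2 (1.38 CP10k) and Pfkfb3 (1.02 CP10k) but a low enzyme sum of 30.0 CP10k. Neutrophils had the highest Gpi1 (5.06 CP10k) and Slc2a3 (1.34 CP10k).

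Hif1a in T cells (2.16 CP10k), tumour-like cells (2.10 CP10k) and macrophages (2.05 CP10k) was close, and the intervals of the first 2 overlapped. Its T cell clusters were spread, with 3.47 CP10k in the cluster led by Tnfrsf4 (a costimulatory receptor of activated and regulatory T cells) and 3.01 CP10k in the cluster led by Ifng, against 1.41 CP10k in the cluster led by Cd8b1. Vegfa was highest in NK cells (0.722 CP10k) and macrophages (0.669 CP10k), and in NK cells it lay in the cluster led by Gzma (1.17 CP10k) and hardly in the one led by Klra1 (0.0740 CP10k). Fibroblast-like cells had the highest P4ha1 (1.25 CP10k, its interval overlapping that of microglia at 1.03 CP10k) and P4ha2 (0.781 CP10k), the collagen hydroxylase subunits, and were next to tumour-like cells for Adm (1.36 CP10k) and Ldha (10.4 CP10k).

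The enzyme sum also varied within classes. It was 110 CP10k in the tumour-like cluster led by Sox9 and 103 CP10k in the one led by Ube2c, a mitosis gene. Macrophages of the cluster led by the interferon-induced chemokine Cxcl9 had 75.9 CP10k, against 54.9 CP10k in the cluster led by F13a1. The 5 T cell clusters ran from 33.1 CP10k (led by Cd8b1) to 50.1 CP10k (led by Ifng), and the 3 neutrophil clusters from 30.2 CP10k (led by Stfa1) to 49.6 CP10k (led by Camp, a gene of immature neutrophils). The Stfa1-led cluster held all 11 microglia markers beside 8 of 12 neutrophil markers, with Hk2 at 1.19 CP10k and Pfkfb3 at 1.2 CP10k, so the low end of the neutrophil range rests on a mixed cluster.

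Single cells showed the same order with wide spread. In tumour-like cells the summed enzymes had a 10th percentile of 69.2 CP10k, a median of 99.8 CP10k and a 90th percentile of 148 CP10k. In monocytes and macrophages these were 30.2, 57.9 and 125 CP10k, and in microglia 16.2, 26.4 and 47.2 CP10k. So the upper macrophages overlapped tumour-like cells, and the upper microglia did not. For the sum of the 7 hypoxia targets Adm, Egln3, Ndrg1, Bnip3, Ero1l, Vegfa and Slc2a1, tumour-like cells ran from 0.706 CP10k at the 10th percentile through a median of 3.62 CP10k to 15.7 CP10k at the 90th. At a median of 14160 corrected UMIs per tumour-like cell this sum rests on few UMIs, and the part of counting error in its spread was not tested. Endothelial cells had the higher median (19.1 CP10k), and Slc2a1 alone stood at 15.7 CP10k over that class.

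**Figure D3:**
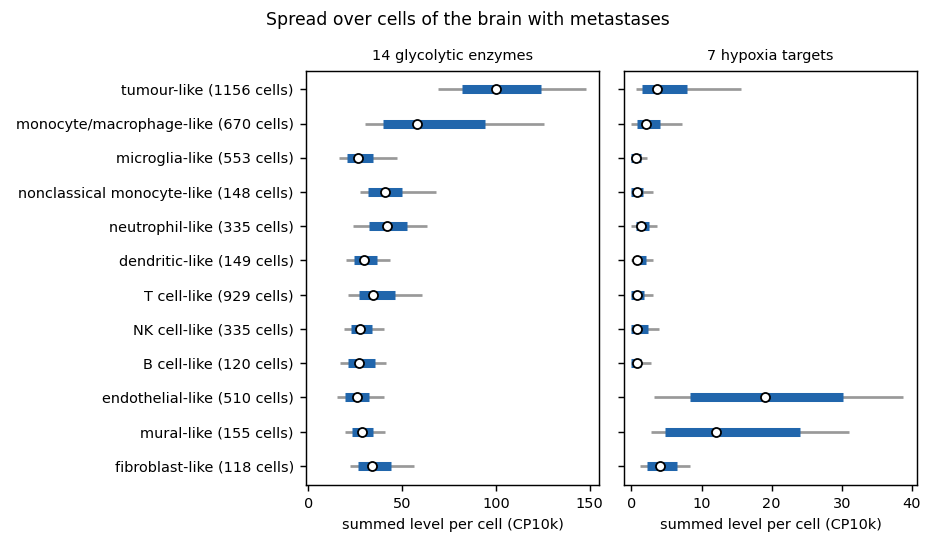
Spread over single cells of the brain with metastases, by class: the circle is the median, the thick bar the 25th to 75th percentile and the thin line the 10th to 90th percentile of the summed CP10k of 14 glycolytic enzymes (left) and of the 7 hypoxia targets Adm, Egln3, Ndrg1, Bnip3, Ero1l, Vegfa and Slc2a1 (right). Tumour-like cells have the highest enzyme median (99.8 CP10k), macrophages the widest overlap with them, and endothelial and mural cells the highest target sums.

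The members varied together from cell to cell, with the highest median r in tumour-like cells. Over 1156 tumour-like cells, the 253 pairs among 23 measured members had a median Pearson r of 0.417 between natural-log values, and 239 pairs were above 0. Over all pairs of 3080 measured genes in the same cells the median was 0.0284 and the 99th percentile 0.375. In 670 monocytes and macrophages the median over 231 pairs was 0.296, against 0.0126 over all genes, and in 929 T cells it was 0.171 over 120 pairs, against 0.0143. Without shared droplets the medians were 0.425, 0.308 and 0.167. The cells of a class share 1 droplet pool, 1 library and the authors' correction for depth. They also pool both arms and clusters of unlike level. The r values thus mix differences between samples and clusters with those between cells, and their parts were not tested. In tumour-like cells the summed enzymes had an r of -0.173 with the corrected UMIs of the cell and the 6 targets used below an r of -0.0661. Levels in the same cell are not independent, and these values are a description. The measured members differed in number (23, 22 and 16) and in level between the classes. Gapdh, for example, stood at 36.4 CP10k in tumour-like cells and 12.4 CP10k in T cells. Neither the classes nor the pairs of all genes were matched for level or depth, and their part in the r values was not tested.

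The closest pairs in tumour-like cells were Tpi1 with Ldha (r = 0.767) and Aldoa with Pgk1 (0.742), next to the pair of the hypoxia genes Adm and Bnip3 (0.673) and that of Slc2a1 and Ndrg1 (0.642). The 11 measured enzymes had a median r of 0.481 among themselves, and the 6 targets Adm, Egln3, Ndrg1, Bnip3, Ero1l and Slc2a1 a median of 0.577. The 6 were named without a fixed rule, and other measured members such as Bnip3l, Higd1a and Slc16a3 are in neither set. How far the medians depend on that choice was not tested. Between enzymes and targets the median was 0.387. Hif1a alone stood outside: its median r with the other 22 members was -0.0856, with the lowest value at Gapdh (-0.247) and the highest at Egln3 (0.178). Every other measured member had a median above 0.2, Tpi1 the highest (0.567) and Hk1 the lowest (0.222).

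Inside the tumour-like cells, several hypoxia targets differed between clusters, as did some enzymes of low level, while the abundant enzymes hardly did. The cluster led by Sox9 (458 cells) and that led by Ube2c (698 cells) were compared after their values had been seen, so this is a description. Of 27 measured members 25 were higher in the Sox9-led cluster, 2 past 2 fold and 0 past 2 fold lower, with a median log2 ratio of 0.20 against -0.03 over 3322 genes (0.331% of all measured genes past 2 fold higher, 4.03% past 2 fold lower). By any amount, 45.5% of all measured genes were higher in the Sox9-led cluster. Without shared droplets 24 of 26 members were higher, 2 past 2 fold. The 2 were Ndrg1 (1.84 CP10k in the Sox9-led and 0.808 CP10k in the Ube2c-led cluster) and Slc2a1 (1.37 and 0.590 CP10k). Adm followed with 2.30 and 1.30 CP10k, Bnip3 with 0.974 and 0.543 CP10k and Ero1l with 1.13 and 0.647 CP10k. Bnip3l (1.89 and 1.13 CP10k) and Vegfa (0.519 and 0.308 CP10k) were also higher in the Sox9-led cluster. The target Egln3 stood close, at 1.24 and 1.11 CP10k. Of the enzymes, Pfkp (0.95 CP10k in the Sox9-led and 0.593 CP10k in the Ube2c-led cluster) and Hk1 (0.670 and 0.453 CP10k) were also higher in the Sox9-led cluster. In contrast Gapdh stood at 37.7 CP10k in the Sox9-led and 35.6 CP10k in the Ube2c-led cluster, Tpi1 at 15.5 and 15 CP10k and Ldha at 18.0 and 17.3 CP10k. Mif (16.4 and 16.9 CP10k) and Hif1a (2.07 and 2.12 CP10k) were the members that were lower.

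A finer clustering gave 6 tumour-like clusters of 74 to 320 cells. Ndrg1 stood at 2.45 CP10k in the Sox9-led cluster, 1.13 CP10k in the Cenpf-led, 1.13 CP10k in the Apol9a-led, 0.798 CP10k in the Fkbp11-led, 0.421 CP10k in the Ung-led and 0.268 CP10k in the Ube2c-led cluster. Adm ran over the same clusters from 2.97 CP10k (Sox9-led) to 0.546 CP10k (Ung-led), and Slc2a1 from 1.82 CP10k (Sox9-led) to 0.273 CP10k (Ung-led). Gapdh ran only from 38.3 CP10k (Sox9-led) to 32.7 CP10k (Apol9a-led), and Egln3 from 1.37 CP10k (Sox9-led) to 0.937 CP10k (Ung-led). Enzymes of low level varied more, Pfkp from 1.21 CP10k (Sox9-led) to 0.303 CP10k (Ung-led), Hk1 from 0.815 CP10k (Sox9-led) to 0.282 CP10k (Ube2c-led) and Hk2 from 0.611 CP10k (Sox9-led) to 0.0536 CP10k (Ube2c-led). Cenpf and Ube2c are genes of mitosis and Ung is a DNA repair gene used in S phase, and the 2 mitotic clusters did not share a level of the targets. Adm was also among the genes with the largest fold in the Sox9-led cluster, although the clustering did not use it.

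**Figure D4:**
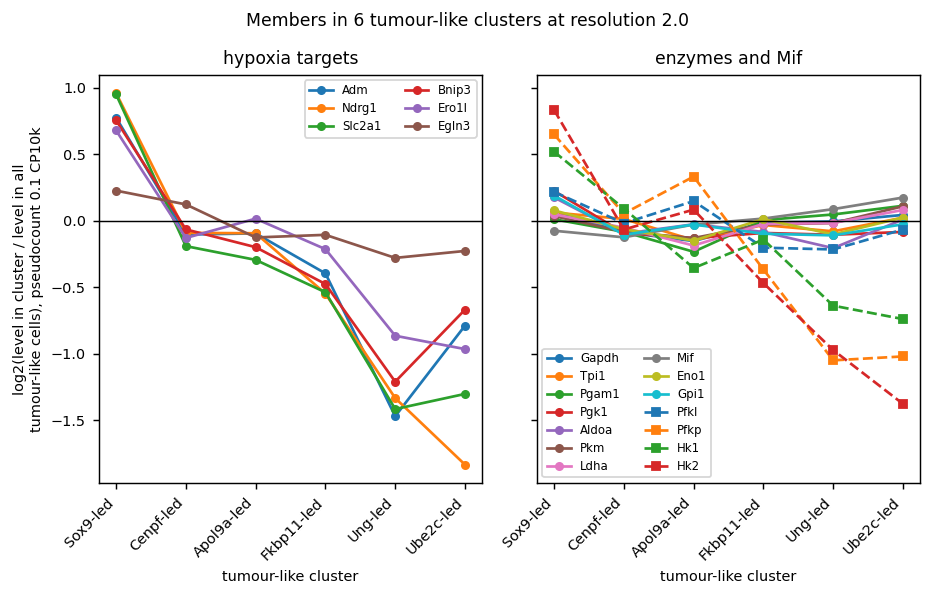
For 6 tumour-like clusters of the finer clustering (x axis, named by their leading gene), each line gives the log2 ratio of a member's CP10k in the cluster to its CP10k in all tumour-like cells (0.1 CP10k added). Of the targets on the left, Adm, Ndrg1, Slc2a1, Bnip3 and Ero1l are high in the Sox9-led and low in the Ung-led and Ube2c-led clusters (Ndrg1 2.45 and 0.268 CP10k in the Sox9-led and the Ube2c-led), and on the right Hk1, Hk2 and Pfkp (dashed) have a like course, whereas Mif and the other enzymes stay nearer to 0.

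Between the brain with metastases and the naive brain, classes of the same name could be set side by side. The limits are that the authors corrected the 2 matrices separately and that a class can hold different subsets in each. The members were mostly higher in the brain with metastases. In T cells (929 and 499 cells) 16 of 16 measured members were higher, with a median log2 ratio of 0.53 against 0.09 over all genes, and 2 were past 2 fold higher, where 6.14% of all measured genes were higher and 0.276% lower by as much. These were Hif1a (2.16 CP10k in the brain with metastases and 0.752 CP10k in the naive brain) and Slc16a3 (0.694 and 0.206 CP10k), and Tpi1 was close to 2 fold (2.01 and 0.971 CP10k). Among all measured genes 61.9% were higher in T cells of the brain with metastases. Without shared droplets 15 of 16 members were higher and Tpi1 was also past 2 fold (log2 ratio 1.01). The naive T cells were 1 cluster led by Cd8b1, whereas those of the brain with metastases pooled 5 clusters. In the Cd8b1-led cluster of the brain with metastases Hif1a stood at 1.41 CP10k, Slc16a3 at 0.424 CP10k and Tpi1 at 1.35 CP10k. The part of subset composition was not tested. Immediate-early genes in T cells summed to 100.1 CP10k in the brain with metastases and 72.0 CP10k in the naive brain, and their part was not tested.

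In monocytes and macrophages (670 and 283 cells) 21 of 22 members were higher in the brain with metastases, with a median of 0.57 against 0.08, and 0 were past 2 fold (0.601% of all measured genes were past 2 fold higher and 2.47% lower). By any amount, 59.4% of all measured genes were higher. Pgk1 stood at 4.67 CP10k in the brain with metastases and 2.55 CP10k in the naive brain, Mif at 4.54 and 2.66 CP10k, and Bnip3l alone was lower (0.944 and 1.01 CP10k). Of the naive monocytes 62.2% were shared droplets, and without shared droplets on either side the median was 0.91 against 0.12, with 21 of 22 higher and 9 past 2 fold, among them Pgk1 (log2 ratio 1.44), Tpi1 (1.30) and Mif (1.10). The share of all genes past 2 fold was not taken in that setting, so the 9 have no background beside them. In NK cells (335 and 146 cells) 15 of 17 were higher, with a median of 0.41 against -0.03, and Vegfa (0.722 and 0.257 CP10k) and Slc16a3 (0.522 and 0.197 CP10k) were past 2 fold, where 1.07% of all measured genes were past it upwards and 1.55% downwards. Among all measured genes 45.9% were higher in NK cells of the brain with metastases. Without shared droplets 15 of 17 members were higher in NK cells, with a median of 0.44.

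Microglia differed least. In 553 and 820 cells, 17 of 18 members were higher in the brain with metastases, but the median was 0.20 against 0.02 and 0 were past 2 fold (0.399% of all measured genes past 2 fold higher, 1.16% lower). Pkm (3.93 and 2.94 CP10k) and Tpi1 (1.42 and 1.04 CP10k) had the largest ratios, and P4ha1 was lower (1.03 and 1.17 CP10k). Among all measured genes 54.4% were higher in microglia of the brain with metastases. Without shared droplets 14 of 19 members were higher, with a median of 0.15. The summed tumour markers stood at 0.347 CP10k in microglia of the brain with metastases and 0.363 CP10k in those of the naive brain. They stood at 0.279 and 0.439 CP10k in monocytes and at 0.719 and 0.878 CP10k in NK cells. In T cells they were 0.913 and 0.723 CP10k. The naive brain also held a cluster of 111 Krt8+ cells, so it is no reference free of such cells. The part of their RNA in the ratios was not tested in any of these classes.

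Between the arms the members differed little. Over 13 comparisons of the depleted-labelled sample with the control-labelled sample, 6 classes of the naive brain and 7 of blood, 2 of 229 values of measured members (0.873%) were past 2 fold, against 1.98% of the values of all measured genes, and the median of the members lay between -0.32 and 0.12. In naive microglia (686 and 134 cells) 6 of 18 members were higher in the depleted-labelled sample, with a median of -0.04 against -0.05 over all genes and 0 past 2 fold (0.284% and 0.977% of all measured genes were past 2 fold higher and lower). Gapdh stood at 9.15 CP10k in the depleted-labelled sample and 8.82 CP10k in the control-labelled sample, Ldha at 2.08 and 2.17 CP10k and Hk2 at 1.34 and 1.36 CP10k. Slc16a3 was lower, at 0.558 and 0.896 CP10k. Among all measured genes 39.7% were higher in the depleted-labelled sample. Without shared droplets 10 of 19 members were higher. By the authors' surface gate for microglia, 2 of 19 were higher, and Gapdh was then lower in the depleted-labelled sample (log2 ratio -0.10).

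**Figure D5:**
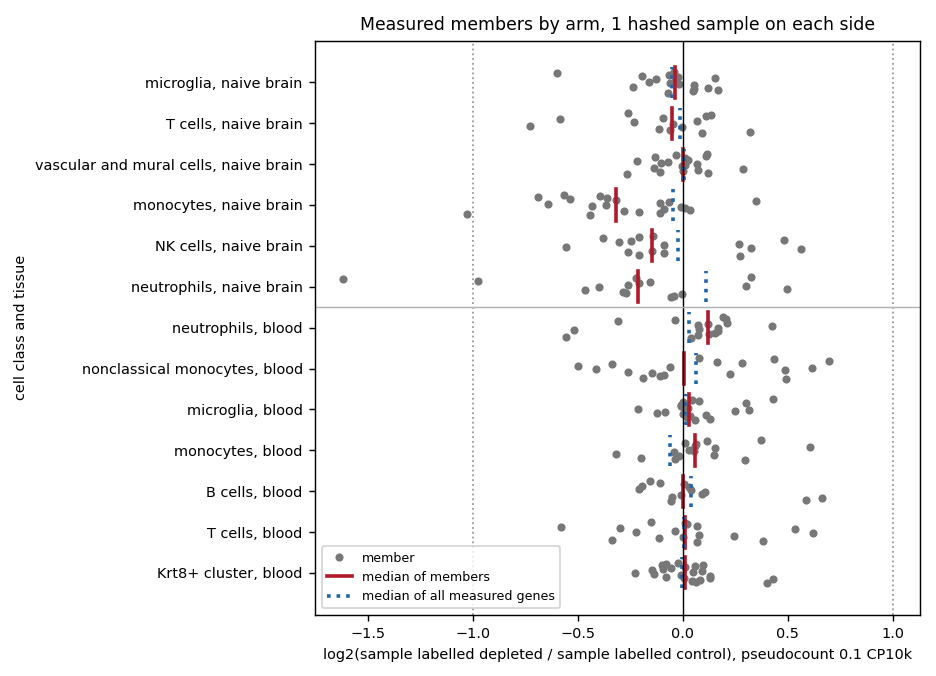
Each point is a measured member, placed by its log2 ratio of the depleted-labelled sample over the control-labelled sample, in 6 classes of the naive brain (top) and 7 of the blood (bottom). Solid bars are the median of the members, dotted bars the median of all measured genes; the members' medians lie between -0.32 (monocytes, naive brain) and 0.12 (neutrophils, blood), and only Bnip3 in naive monocytes and Slc2a1 in naive neutrophils pass the dotted line at 2 fold.

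Monocytes of the naive brain (172 and 111 cells) had the lowest median of the members. Only 3 of 21 were higher in the depleted-labelled sample, with a median of -0.32 against -0.05 over all genes, and the summed members were 57.3 CP10k in the depleted-labelled sample and 71.7 CP10k in the control-labelled sample. Among all measured genes 42.6% were higher in the depleted-labelled sample. Bnip3 was past 2 fold lower (0.233 and 0.579 CP10k, ratio interval 0.27 to 0.60), where 1.35% of all measured genes were past 2 fold lower and 0.451% higher. Slc16a3 stood at 1.08 and 1.81 CP10k, Tpi1 at 2.36 and 3.53 CP10k and Pgk1 at 2.15 and 3.16 CP10k. Without shared droplets 3 of 19 were higher, with a median of -0.46 against -0.16, and Slc16a3 was then past 2 fold lower (log2 ratio -1.45) and Bnip3 no longer (-0.82). When the monocytes were taken by the authors' surface gates in place of clusters, the lean was gone, with 56% of the measured members higher in the depleted-labelled sample. Median raw UMIs per cell also differed, 21847.5 in the depleted-labelled sample and 31224 in the control-labelled sample, and the part of depth and of shared droplets was not tested.

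Neutrophils of the naive brain (56 and 49 cells) had 3 of 16 members higher in the depleted-labelled sample, with a median of -0.22 against 0.11. Slc2a1 was past 2 fold lower on few corrected UMIs (11 in the depleted-labelled sample and 38 in the control-labelled sample, 0.209 and 0.849 CP10k), where 1.62% of all measured genes were past 2 fold lower and 6.02% higher. Slc16a3 stood at 2.03 and 4.09 CP10k. By surface gate, 63.6% of the measured members of naive neutrophils were higher in the depleted-labelled sample. No value without shared droplets was taken, as fewer than 30 cells a side were left. Blood neutrophils (429 and 537 cells) leaned the other way, with 13 of 17 higher, a median of 0.12 against 0.03 and 0 past 2 fold (0.0864% of all measured genes past it upwards, 0.561% downwards), and Slc16a3 was again lower there (1.85 and 2.31 CP10k). Pkm stood at 9.55 CP10k in the depleted-labelled sample and 8.24 CP10k in the control-labelled sample, Slc2a3 at 3.43 and 2.97 CP10k, and Hif1a at 0.934 and 1.38 CP10k. In blood neutrophils 55.7% of all measured genes were higher in the depleted-labelled sample. Without shared droplets 13 of 17 blood neutrophil values of members were still higher.

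The other naive brain classes had 0 members past 2 fold. In T cells (440 and 59 cells) 5 of 14 were higher, with a median of -0.05 against -0.01 and 0 past 2 fold (0.462% of all measured genes past 2 fold higher, 0.675% lower), and Hif1a stood at 0.690 CP10k in the depleted-labelled sample and 1.21 CP10k in the control-labelled sample. In vascular and mural cells 9 of 19 were higher and 0 past 2 fold (0.661% and 1.64% of all measured genes past it upwards and downwards), with Slc2a1 at 4.19 and 4.28 CP10k and Ndrg1 at 1.61 and 1.54 CP10k. Median raw UMIs per vascular and mural cell were 1888 in the depleted-labelled and 4575 in the control-labelled sample. The part of depth was not tested. Among all measured genes 48.2% were higher in T cells and 50.6% in vascular and mural cells. Without shared droplets the counts of members higher were 9 of 14 and 15 of 20, the second with a median of 0.08 against -0.00. In NK cells the members leaned lower, with 5 of 16 higher, a median of -0.15 against -0.02 and 0 past 2 fold (1.45% and 1.35% of all measured genes). By any amount, 48.1% of all measured genes were higher in the depleted-labelled NK cells. Without shared droplets fewer than 30 NK cells were left on a side.

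In blood, nonclassical monocytes (386 and 95 cells) had 9 of 18 higher and 0 past 2 fold (0.990% and 1.54% of all measured genes past it upwards and downwards), with Pkm at 7.06 CP10k in the depleted-labelled sample and 4.31 CP10k in the control-labelled sample, Ldha at 4.53 and 2.92 CP10k and Pfkl at 0.405 and 0.613 CP10k. By surface gate, 15.8% of the measured members were higher there. Classical monocytes had 11 of 16 higher with a median of 0.06, B cells 7 of 14 with a median of -0.00 and T cells 10 of 17 with a median of 0.01. None passed 2 fold there, where 0.420%, 0.745% and 1.11% of all measured genes did upwards and 0.691%, 0.541% and 0.216% downwards in classical monocytes, B cells and T cells. Higher by any amount were 57.2%, 40.9%, 55.3% and 51.2% of all measured genes in nonclassical monocytes, classical monocytes, B cells and T cells. Without shared droplets the counts of members higher in these classes were 9 of 18, 11 of 16, 6 of 15 and 8 of 18. A member that had been under 0.5 CP10k was then past 2 fold higher in T cells. Blood cells of a microglia-like cluster, 82.7% of them shared droplets, had 14 of 20 higher with a median of 0.03 and 0 past 2 fold (0.732% and 0.669% of all measured genes), and 12 of 22 without shared droplets, where Ndrg1 was past 2 fold lower (log2 ratio -1.25, against -0.21 with them). With shared droplets, 53.8% of all measured genes were higher in the depleted-labelled cells of this microglia-like cluster. In 11 of the 13 comparisons no member passed 2 fold in either direction, where between 0.0864% and 1.64% of all measured genes did in a given direction.

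A cluster of Krt8+ cells with very high UMI counts in the blood (180 cells, median 160798 raw UMIs, 83.9% of them shared droplets) carried the module at the level of tumour-like cells, with 188 CP10k in all. By arm, 93 and 87 cells, 13 of 23 members were higher in the depleted-labelled sample, with a median of 0.01 against -0.01 and 0 past 2 fold (0.171% and 0.514% of all measured genes were past 2 fold higher and lower). Gapdh stood at 37.3 CP10k in the depleted-labelled sample and 39.5 CP10k in the control-labelled sample, Tpi1 at 19.6 and 19.8 CP10k and Ldha at 22.8 and 22.0 CP10k. Adm (1.74 and 1.29 CP10k) and Egln3 (1.2 and 0.865 CP10k) had the largest ratios. Among all measured genes 48.5% were higher in the depleted-labelled sample. Fewer than 30 cells a side were left without shared droplets.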

How the data were processed

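Single-cell RNA was analysed from 3 deposited matrices whose values, per the labels and the values themselves, are the natural log of 1 plus a depth-corrected UMI count, made by the authors for each matrix separately. Cell Ranger 3.1, Seurat 3.1.1 and build mm10 are named in the submitters' processing notes, and their parameters are not given in the sources used here. The annotation tables hold, as deposited by the authors, the raw UMI count of each cell, a score that sums its corrected UMIs, the arm of its hashtag and its cluster, and 23 and 25 of their other columns (naive brain and blood) were not used. Values were turned back with exp(value) - 1, which gave whole numbers within 1e-06 in 100% of nonzero entries, then added up within each class and expressed per 10000 UMIs (CP10k).

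Log2 ratios carry a pseudocount of 0.1 CP10k. Genes had to reach 0.5 CP10k on a side to be measured, and were past 2 fold at a log2 ratio beyond 1 in size, with at least 30 cells a side. Intervals are exact at 95% (Poisson, conditional binomial, Clopper-Pearson) and cover counting error only. Those of levels and ratios treat corrected UMIs as counts, so they are not intervals of captured molecules. In the naive brain no cell had fewer than 6589 corrected UMIs, while depleted-labelled vascular and mural cells had a median of 1888 raw UMIs. Cells of the brain with metastases were clustered without the members (2000 variable genes, 30 components, 20 neighbours, Leiden resolution 1; scanpy 1.11.5) and named from marker lists. Names that the leading genes of a cluster went against were dropped, a rule added after those genes were seen. Doublets were not called, and barcodes that appear in several matrices (shared droplets) were removed in an alternative analysis. The ratios were checked on simulated data. All 35 members were accounted for, with values in full for those at 0.5 CP10k or more. The members and lists were chosen with earlier results of these data known. Promoters are RefSeq sequences.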

Additional observations from a re-analysis of the deposited data

Results flagged for a closer look

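The naive brain, which came from mice without metastases, held a cluster of 111 Krt8+ cells with a median of 157758 raw UMIs, and its summed members stood at 171.8 CP10k, as against 161.6 CP10k in tumour-like cells of the brain with metastases. It was picked out because this cluster enters no comparison. Of its cells 88 carried the depleted arm's hashtag and 23 the control arm's, with summed members of 175.6 and 156.8 CP10k, and 72.1% of its barcodes were also listed in another matrix. The like cluster of the blood, 180 cells with 83.9% of barcodes listed elsewhere, stood at 188.2 CP10k. The part of shared droplets in these sums was not tested.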

How the results depend on the processing

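With the authors' surface gates in place of clusters, the share of measured members that were higher in the depleted-labelled sample was 10.5% in naive microglia (33.3% by cluster), 56% in naive monocytes (14.3%), 63.6% in naive neutrophils (18.8%) and 15.8% in blood nonclassical monocytes (50%). Without shared droplets it was 75% in naive vascular and mural cells (47.4%). With 2 CP10k as the level of a measured gene it was 0% in naive neutrophils (18.8%), 88.9% in blood microglia-like cells (70%) and 20% in blood B cells (50%). The members past 2 fold higher in tumour-like than in immune cells, 14 in the analysis as reported, were 9 with a pseudocount of 1 CP10k, 8 at a level of 2 CP10k and 9 when centred on the median gene. The causes of these shifts were not tested. Shares of all genes higher or past 2 fold are given for the analysis as reported only. The 37.5% past 2 fold higher in tumour-like cells is therefore no background for the 9, 8 and 9. No paired analysis was possible because each arm is 1 hashed sample in each tissue. Depth, shared droplets and separate correction of the 3 matrices limit every level set across them.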
